A study of Homo sapiens with 11 samples.

Results

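Peaks of 5 antibodies were compared with one another in 92-1 cells after 4 h of FHT-1015, to describe which of them still lay on the same stretches of the genome while the BAF remodeller was inhibited. 92-1 is an established cell line from a uveal melanoma, which arises from melanocytes of the eye's uveal tract. FHT-1015 inhibits SMARCA4 (also called BRG1) and SMARCA2, the alternative ATPases of the BAF complexes, and its dose was not given in the sources used here. The rule took the narrow peak list of each immunoprecipitated library of FHT-1015-treated cells: H3K27ac, SMARCA4, MITF, AP-2 and SOX10. The target was written AP-2 in the sample titles, and the antibody was one against TFAP2A per the labels' protocol. These were 5 of the 11 libraries and 382790 of the 888435 narrow peaks of the series. The other libraries were the same 5 antibodies after 4 h of DMSO, the solvent, and a DMSO input. All were formaldehyde-fixed and sonicated chromatin of the same line, with no further treatment named in the labels. Each antibody had 1 library per condition, so no comparison below has a replicate behind it and none was tested. Intervals are 95% Wilson intervals over peaks, regions or genes and cover counting error only, and DMSO values are printed for reference.

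The 5 proteins and marks have different roles. BAF complexes slide and evict nucleosomes, and SMARCA4 is found at promoters and enhancers where DNA is kept open. MITF is a basic helix-loop-helix leucine zipper factor that drives pigment and lysosomal genes and reads E-boxes. SOX10 is a high mobility group factor of the neural crest that acts upstream of MITF in melanocytes. TFAP2A is a neural crest factor that binds palindromes rich in G and C, often together with MITF. H3K27ac is laid down on nucleosomes beside active promoters and enhancers, so its signal flanks rather than covers the bound DNA.

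The lists differed in length and in strength, which bears on every overlap. The H3K27ac list held 48103 peaks, the SMARCA4 list 89761, the MITF list 92716, the AP-2 list 118942 and the SOX10 list 33268, and they covered 52.1, 45.0, 28.2, 49.6 and 11.3 Mb. The median −log10 p that the authors' caller gave a peak was 11.6, 4.96, 4.35, 6.82 and 4.70 in the same order, and the lowest was just above 2 in each list. Peaks with a −log10 p of 10 or more are called strong below. A q-value under 0.05 was reached by 94.8% of H3K27ac peaks, 79.9% of SMARCA4, 61.1% of MITF, 92.9% of AP-2 and 57.9% of SOX10 peaks. Recovered from the peak values, the median summit held 26, 14, 8, 15 and 17 reads, and the libraries were 1.58, 1.45, 1, 1.34 and 1.91 times as deep as that of MITF. The SOX10 library was thus the deepest of the 5 and its list the shortest, and the MITF library was the shallowest. In DMSO the SOX10 list held 103379 peaks.

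The starts of 6 genes at which all 5 lists coincided after FHT-1015 show what the shared sites look like. Each line gives the 250 bases before the annotated start, 5′ to 3′ on the gene's strand, from RefSeq on GRCh38.p14. Capitals mark a match, on either strand, to CATGTG (read CACATG on the other strand) or CACGTG, the E-boxes that MITF can read, to ACAAAG, the core of SOX sites, to GCCNNNGGC, the AP-2 palindrome, or to TGACTCA, the AP-1 site. None of these motifs contains another, and no match in these windows overlapped another. TYR and TYRP1 were chosen because they encode melanin enzymes. GPNMB, SPRY2 and CDH19 were chosen because they were among the 20 genes with the strongest shared sites. CTSA had the strongest shared site within the lysosome and autophagy gene list used below.
TYR, chr11:89177625-89177874, plus strand: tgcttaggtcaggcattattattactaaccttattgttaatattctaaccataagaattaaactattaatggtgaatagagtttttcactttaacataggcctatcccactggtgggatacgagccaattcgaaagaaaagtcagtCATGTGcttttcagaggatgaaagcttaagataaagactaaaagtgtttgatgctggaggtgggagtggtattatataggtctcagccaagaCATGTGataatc
TYRP1, chr9:12693135-12693384, plus strand: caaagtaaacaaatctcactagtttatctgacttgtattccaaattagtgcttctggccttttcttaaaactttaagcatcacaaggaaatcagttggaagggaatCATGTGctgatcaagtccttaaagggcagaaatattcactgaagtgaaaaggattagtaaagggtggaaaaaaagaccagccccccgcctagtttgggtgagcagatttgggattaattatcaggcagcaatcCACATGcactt
GPNMB, chr7:23246525-23246774, plus strand: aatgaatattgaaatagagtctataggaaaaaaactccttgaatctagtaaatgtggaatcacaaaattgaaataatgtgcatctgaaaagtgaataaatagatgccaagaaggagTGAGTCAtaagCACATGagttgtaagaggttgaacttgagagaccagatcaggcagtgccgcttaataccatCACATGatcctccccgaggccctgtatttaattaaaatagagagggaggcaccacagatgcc
CTSA, chr20:45891085-45891334, plus strand: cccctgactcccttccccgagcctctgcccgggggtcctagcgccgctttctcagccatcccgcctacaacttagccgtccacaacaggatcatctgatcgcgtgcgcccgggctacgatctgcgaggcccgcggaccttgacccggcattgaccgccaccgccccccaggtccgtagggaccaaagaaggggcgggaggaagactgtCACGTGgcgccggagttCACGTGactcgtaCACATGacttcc
SPRY2, chr13:80341127-80341376, minus strand: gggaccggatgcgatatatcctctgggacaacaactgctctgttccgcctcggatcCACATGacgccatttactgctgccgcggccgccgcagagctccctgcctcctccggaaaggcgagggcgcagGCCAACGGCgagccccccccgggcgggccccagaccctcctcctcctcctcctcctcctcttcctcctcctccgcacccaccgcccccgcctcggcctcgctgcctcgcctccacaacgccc
CDH19, chr18:66604091-66604340, minus strand: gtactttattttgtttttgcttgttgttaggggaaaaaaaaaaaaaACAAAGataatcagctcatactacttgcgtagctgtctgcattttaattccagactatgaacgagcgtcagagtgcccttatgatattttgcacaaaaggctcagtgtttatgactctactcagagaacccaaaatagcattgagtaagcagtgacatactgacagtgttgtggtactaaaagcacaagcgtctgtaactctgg

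In the TYR window CATGTG stood at −104 to −99 and at −12 to −7, counting back from the start. The MITF summit lay at −28, the SOX10 summit at −12 and the SMARCA4 summit at −4, while the AP-2 summit lay 113 bp after the start. At GPNMB, which encodes a melanosomal and lysosomal glycoprotein, CATGTG stood at −123 to −118 and −62 to −57 and TGACTCA at −134 to −128. The summits of MITF (−78), SMARCA4 (−70), SOX10 (−56) and AP-2 (−47) lay within the same window, and that of H3K27ac lay 1179 bp after the start. At CTSA, which encodes a lysosomal carboxypeptidase, CACGTG stood at −42 to −37 and −25 to −20 and CATGTG at −12 to −7, and the SMARCA4, SOX10 and MITF summits were at −42, −32 and −12. In the SPRY2 window CATGTG stood at −194 to −189 and GCCNNNGGC at −122 to −114, and the summits of SMARCA4, MITF, AP-2 and SOX10 lay between −174 and −235. CDH19 held 1 ACAAAG, at −204 to −199, and its SOX10 summit lay at −82. At TYRP1 the MITF summit (−146) and the AP-2 summit (−129) lay beside the CATGTG at −144 to −139, and the SOX10 summit was at −65.

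The same motifs were counted in all 22182 start windows of 250 bases, of which 2692 were overlapped by all 5 lists and 7749 by none. CACGTG was present in 18.1% of the windows with all 5 lists, 4.63% of those with none and 7.38% of all windows. CATGTG was present in 6.02%, 11.3% and 7.59%, and ACAAAG in 7.62%, 16.6% and 11.6%. GCCNNNGGC was present in 31.2% of windows with all 5 lists, 13.4% of those with none and 23.4% of all, and TGACTCA in 2.53%, 5.28% and 3.44%. Thus CACGTG and GCCNNNGGC were more frequent, and the other motifs less frequent, where all 5 lists met than where none did or in all windows. These differences were not all particular to windows with 5 lists. GCCNNNGGC was present in 31.1% of windows with 3 lists and 31.8% of those with SMARCA4, and CACGTG in 16.2% of those with MITF. CATGTG was less frequent with 3 lists (4.53%) than with all 5. The median share of G and C was 67.6% in windows with all 5 lists and 52% in those with none, and its part in these differences was not tested. Among windows with a strong MITF peak, 25.3% held CACGTG and 7.80% CATGTG.

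Overlap between pairs of lists was counted first, a peak being shared when at least 1 bp lay in a peak of the other list. Acetylated sites were mostly sites of the remodeller: 64.0% of H3K27ac peaks overlapped a SMARCA4 peak (63.6 to 64.4), 54.7% an AP-2 peak, 40.8% a MITF peak and 28.6% a SOX10 peak (28.2 to 29.0). Of the SMARCA4 peaks, 47.9% overlapped H3K27ac, 40.8% AP-2, 24.98% MITF and 17.5% SOX10. Of the SOX10 peaks, 55.5% overlapped H3K27ac (55.0 to 56.0), 54.1% AP-2, 51.0% SMARCA4 and 37.7% MITF. MITF overlapped H3K27ac in 25.6%, SMARCA4 in 24.9%, AP-2 in 23.3% and SOX10 in 13.1% of its peaks, and AP-2 overlapped SMARCA4 in 30.7%, H3K27ac in 26.7%, MITF in 17.3% and SOX10 in 13.7%. Each share depends on the length of the second list. SOX10, the shortest list, was the least frequent partner of the other 4 antibodies. With every list reduced to its 33268 strongest peaks it remained so for H3K27ac (39.3%), SMARCA4 (36.2%) and MITF (29.3%). For AP-2 the order turned, as AP-2 then overlapped SOX10 in 34.6% and MITF in 32.1% of its peaks.

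In DMSO, where the SOX10 list was longer, SOX10 overlapped 64.3% of H3K27ac, 56.5% of SMARCA4, 52.7% of MITF and 43.3% of AP-2 peaks. Seen from the SOX10 side the values lay closer together: its peaks overlapped H3K27ac in 49.6% of cases in DMSO and 55.5% in FHT-1015, SMARCA4 in 55.0% and 51.0%, AP-2 in 61.3% and 54.1%, and MITF in 45.0% and 37.7%. Overlap of H3K27ac with SMARCA4 was 60.8% in DMSO and 64.0% in FHT-1015. The plot of pairwise shares sets both conditions side by side.

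**Figure D1:**
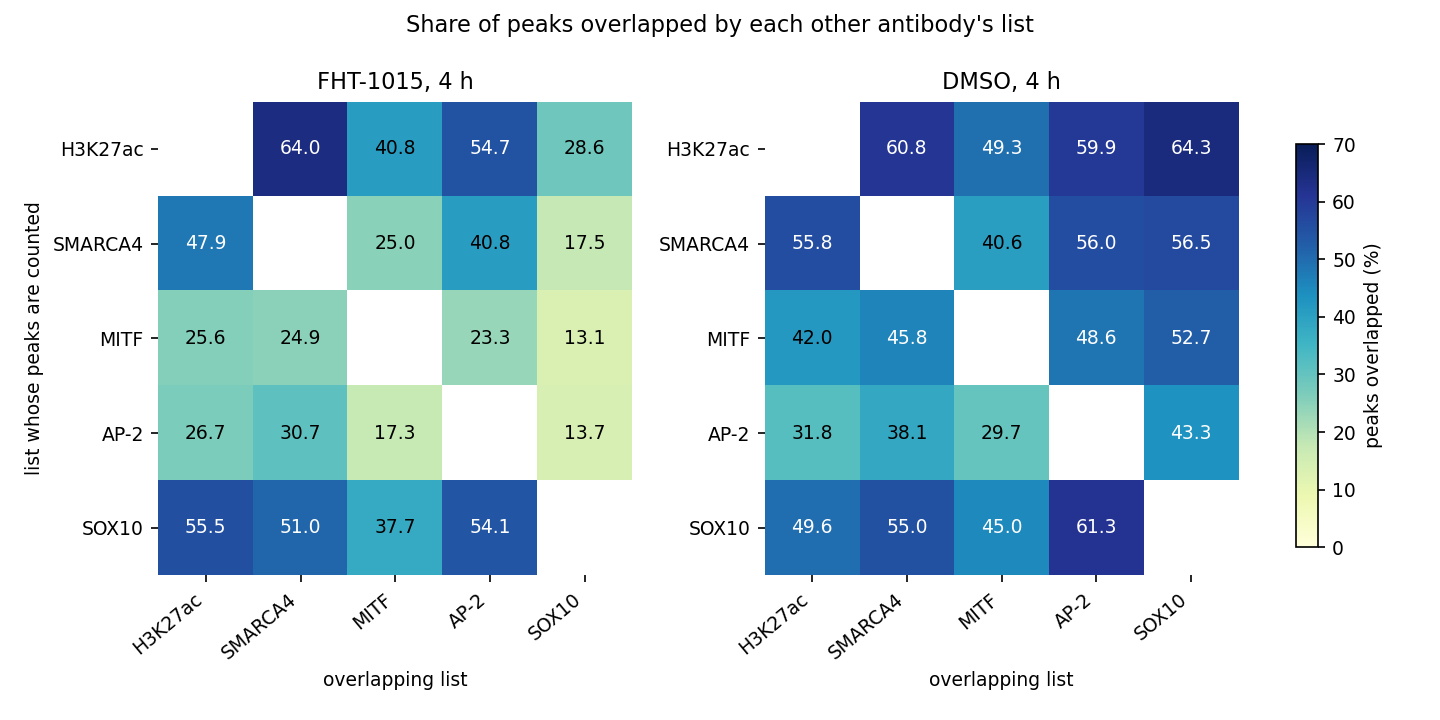
Share of the peaks of each list (rows, %) that overlap a peak of each other list (columns) by at least 1 bp, after 4 h of FHT-1015 (left) or DMSO (right), 1 library per antibody and condition. The SOX10 column runs from 13.1 to 28.6% after FHT-1015 and from 43.3 to 64.3% in DMSO, while the SOX10 row differs less between the panels.

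Peaks that overlapped all 4 other lists were 27.4% of SOX10 peaks (26.96 to 27.9), 19.1% of H3K27ac, 10.2% of SMARCA4, 9.63% of MITF and 7.71% of AP-2 peaks. Peaks that overlapped no other list were 32.2% of SOX10, 23.6% of H3K27ac, 37.6% of SMARCA4, 66.1% of MITF and 60.5% of AP-2 peaks. When only strong peaks were kept in every list, 2356 of 13440 MITF peaks and 19470 of 40132 AP-2 peaks met no other. With lists of equal number 14137 MITF and 11856 AP-2 peaks of 33268 stood alone. The order of the first set of shares turned with the lengths of the lists: when each list was reduced to its 33268 strongest peaks, all 4 others were met by 19.3% of H3K27ac, 18.2% of SMARCA4, 17.7% of MITF, 18.3% of AP-2 and 18.2% of SOX10 peaks. The combination found most often over SOX10 peaks that had some but not all of the others was H3K27ac with SMARCA4 and AP-2 but without MITF, on 3967 peaks (11.9%). When only strong peaks were kept in every list, 45.1% of SOX10 peaks met all 4 others, and when summits had to lie within 200 bp 5.67% did.

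Distances between summits, the point of highest signal in each peak, were shorter among overlapping peaks for pairs without H3K27ac than for pairs with it. Among overlapping peaks the median distance was 72 bp between MITF and SOX10 (quartiles 29 and 168), 96 bp between SMARCA4 and MITF, 100 bp between MITF and AP-2 and also between AP-2 and SOX10, 103 bp between SMARCA4 and SOX10, and 119 bp between SMARCA4 and AP-2. Between H3K27ac and the others it was 143 bp for SMARCA4, 175 bp for MITF, 182 bp for AP-2 and 255 bp for SOX10. Of overlapping MITF and SOX10 peaks, 60.2% had summits within 100 bp, against 22.5% for H3K27ac and SOX10, where 27.8% were more than 500 bp apart. Distances were counted from the peaks of the shorter list, so those from H3K27ac start at H3K27ac peaks for 3 partners and at SOX10 peaks for SOX10. The most frequent distances from H3K27ac to SMARCA4, MITF and AP-2 were still those under 25 bp (12.1, 7.63 and 8.36% of overlapping peaks). Over nearest summits within 1 kb the medians from H3K27ac to SMARCA4, MITF, AP-2 and SOX10 were 172, 215, 212 and 225 bp. By that measure SMARCA4 lay nearer to H3K27ac than to MITF (215 bp) or AP-2 (207 bp). MITF and SOX10 were the nearest pair there too, at 112 bp.

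In DMSO the medians between factors were shorter: 52 bp for MITF and SOX10, 53 bp for AP-2 and SOX10, 66 bp for SMARCA4 and SOX10, 67 bp for MITF and AP-2, 68 bp for SMARCA4 and MITF and 78 bp for SMARCA4 and AP-2. The medians from H3K27ac ran the other way for 3 of 4 partners, with 197 bp to SMARCA4, 235 bp to MITF and 238 bp to AP-2 in DMSO, and 226 bp to SOX10. The shorter list was another one in DMSO for H3K27ac with SOX10, SMARCA4 with MITF, SMARCA4 with SOX10 and MITF with SOX10, so for these pairs the conditions were not counted from the same side. It was the same for SMARCA4 with AP-2, MITF with AP-2 and AP-2 with SOX10. Peak strength moved with these distances: for MITF and SOX10 the median after FHT-1015 was 41 bp when both peaks were strong. The part of peak strength in the difference between the conditions was not tested.

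**Figure D2:**
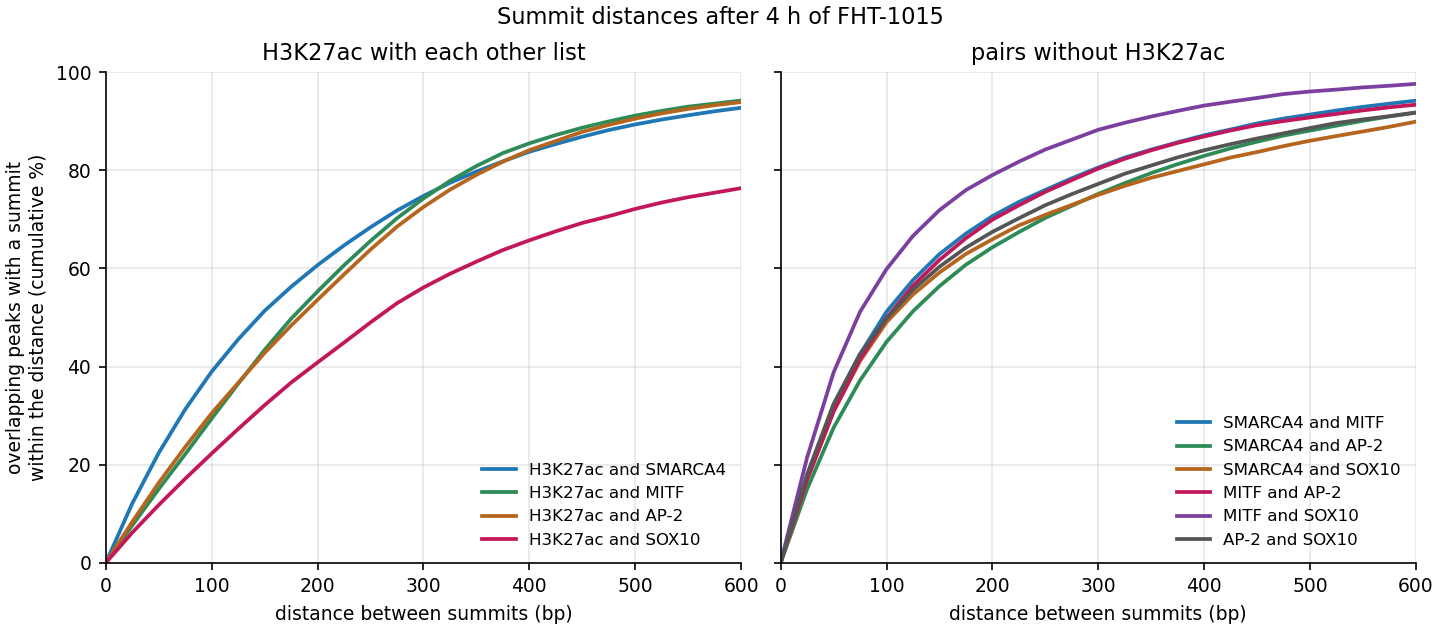
Cumulative share of overlapping peaks (%) against the distance between their summits (bp) after FHT-1015, for H3K27ac with each other list (left) and for the pairs without H3K27ac (right). The curve of MITF and SOX10 lies highest, with 60.2% within 100 bp, and that of H3K27ac and SOX10 lowest, with 22.5%.

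All 5 lists were then merged into regions wherever peaks shared a base, and each region was named by the lists in it. Of 239597 regions, 189094 held 1 list, 22255 held 2, 10902 held 3, 8119 held 4 and 9227 held all 5 (3.85%). Regions of AP-2 alone (72001), MITF alone (61290), SMARCA4 alone (33737), H3K27ac alone (11369) and SOX10 alone (10697) were the 5 most frequent of the 31 possible combinations, and all 5 together came next. The next were SMARCA4 with AP-2 (7116), H3K27ac with SMARCA4 and AP-2 (5185), H3K27ac with SMARCA4, MITF and AP-2 (4630) and H3K27ac with SMARCA4 (4424). The rarest combination was SMARCA4 with MITF and SOX10 but neither H3K27ac nor AP-2, with 84 regions. Median width went from 241 bp with 1 list to 2395 bp with all 5, so the regions with more lists also offered more length for an overlap.

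The DMSO lists, merged in the same way, gave 23053 regions with all 5 (9.81%). Of these, 8084 (35.1%) also met all 5 lists after FHT-1015, 15.9% met all but SOX10 and 5.38% met none. Taken singly, SMARCA4 peaks lay on 85.3% of these DMSO regions after FHT-1015, H3K27ac on 81.1%, AP-2 on 74.7%, MITF on 64.6% and SOX10 on 42.5% (41.9 to 43.2). Of the 9227 regions with all 5 lists after FHT-1015, 87.1% met all 5 DMSO lists and 99.7% met the DMSO SOX10 list. Without the SOX10 list, 13857 regions held the other 4 after FHT-1015.

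The share of regions at gene boundaries was higher the more lists a region held, although most regions with 2, 3 or 4 lists lay elsewhere. A boundary was taken as 1 kb either side of either end of a protein-coding RefSeq gene, since strand was known only for the 15842 genes with an annotated start. Within it lay 28.9% of SOX10 peaks (28.4 to 29.4), 27.8% of H3K27ac, 21.6% of SMARCA4, 17.9% of AP-2 and 11.1% of MITF peaks. Among strong peaks the order turned, with 44.5% of SMARCA4, 43.5% of H3K27ac, 31.7% of AP-2, 30.3% of SOX10 and 29.7% of MITF peaks. Of regions with 1 list 5.06% lay at a boundary, with 2 lists 14.2%, with 3 lists 26.8%, with 4 lists 41.5% and with all 5 lists 52.7% (51.7 to 53.7). Within 1 kb of an annotated start the shares were 2.40% with 1 list and 46.7% with all 5. With strong peaks alone, 14.7% of regions with 1 list and 29.1% of those with all 5 lay within 1 kb of a boundary, a narrower gap.

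Which list was present mattered as much as how many. Regions of H3K27ac, AP-2, MITF and SOX10 without SMARCA4 lay at a boundary in 62.6% of 420 cases, and those of H3K27ac, SMARCA4, AP-2 and SOX10 without MITF in 59.5% of 2229. Regions of H3K27ac, SMARCA4, MITF and SOX10 without AP-2 did so in 10.6% of 567 cases (8.31 to 13.4). Likewise, H3K27ac with SMARCA4 and MITF lay at a boundary in 6.63% of 2248 regions and in 34.8% of 4630 when AP-2 was added. Over the 15 pairs of combinations that differed by 1 list, the share was higher with AP-2 in 15 (median 23.8 percentage points), with H3K27ac in 15 (13.5), with SOX10 in 15 (10.9), with SMARCA4 in 12 (4.25) and with MITF in 6 (−0.77). In DMSO, 29.2% of regions with all 5 lists lay at a boundary, and adding SOX10 gave a higher share in 11 of 15 pairs (2.43).

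**Figure D3:**
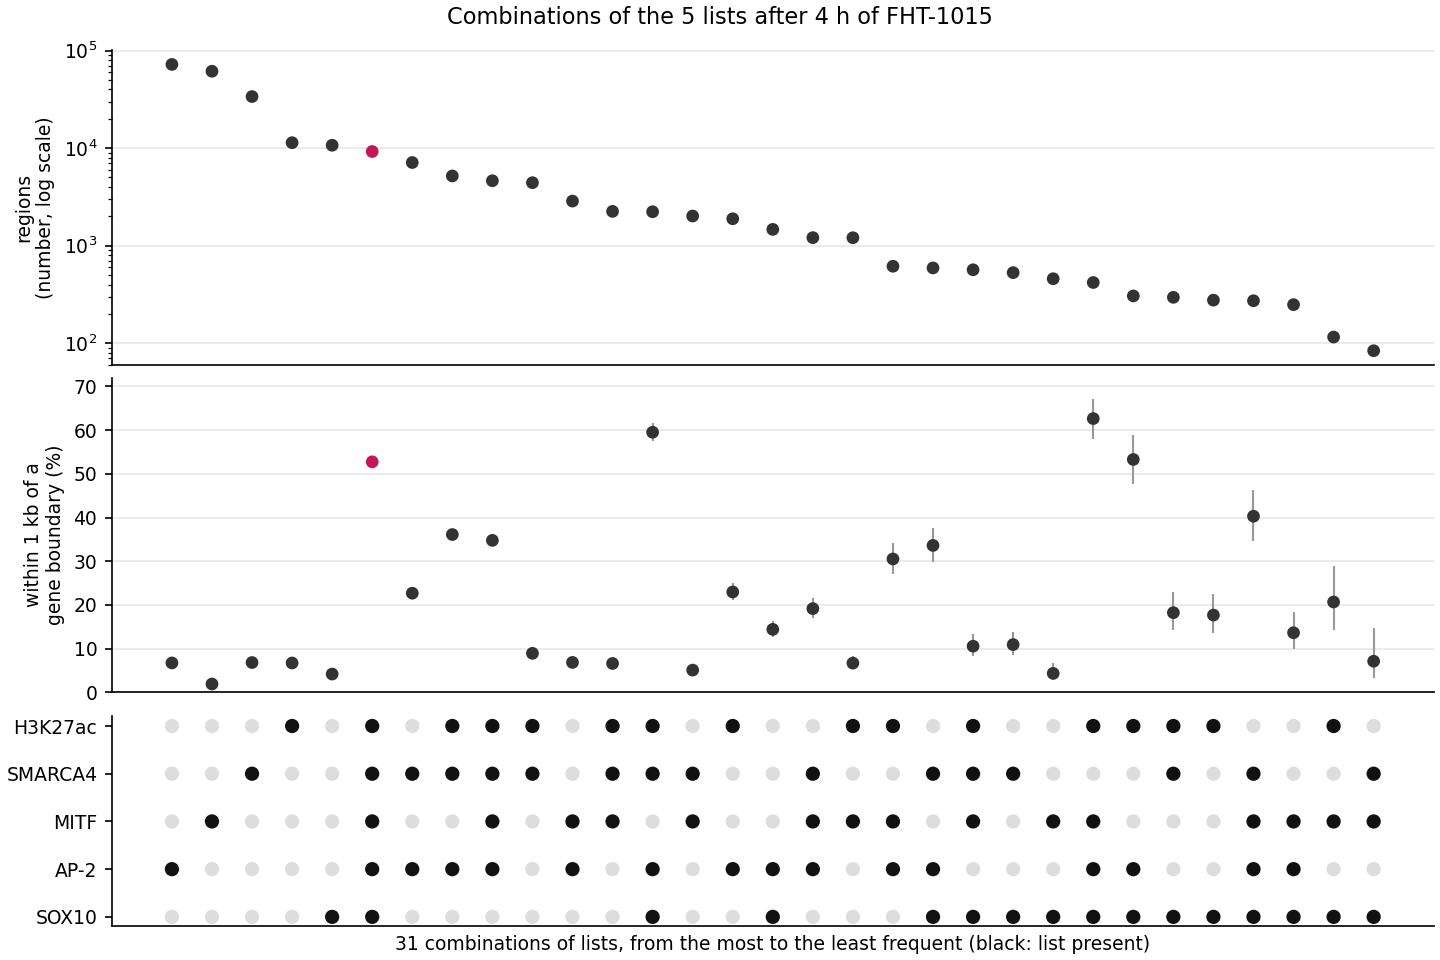
Number of regions (top, log scale) and share within 1 kb of a gene boundary (middle, %, with 95% Wilson intervals) for each of the 31 combinations of lists after FHT-1015, ordered by number, with the lists present marked in black (bottom). The 9227 regions with all 5 lists, in red, lie at a boundary in 52.7% of cases, and the combinations that include both H3K27ac and AP-2 lie higher than the same combinations without AP-2.

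Peaks that met more lists had a higher −log10 p in their own list. In the H3K27ac list the median −log10 p was 4.72 for peaks with none of the other lists and 141 for those with all 4. The same pair of medians was 4.02 and 15.3 in the SMARCA4 list, 3.53 and 15.9 in the MITF list, 5.58 and 45.0 in the AP-2 list, and 3.73 and 7.74 in the SOX10 list. The SOX10 gradient was the smallest: its median fold over background was 3.07 with none and 3.59 with all 4, against 3.12 and 19.4 for H3K27ac. With 1, 2 and 3 other lists the SOX10 fold was 3.07, 2.94 and 3.05, so by fold it was higher only with all 4. In the strongest 10% of each list, 79.5% of SOX10, 78.0% of H3K27ac, 50.2% of MITF, 46.4% of SMARCA4 and 44.9% of AP-2 peaks met all 4 others, and in the weakest 10% 11.1%, 0.333%, 1.36%, 1.18% and 0.8996%. In DMSO the median −log10 p of SOX10 peaks was 4.71 with none and 21.4 with all 4.

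**Figure D4:**
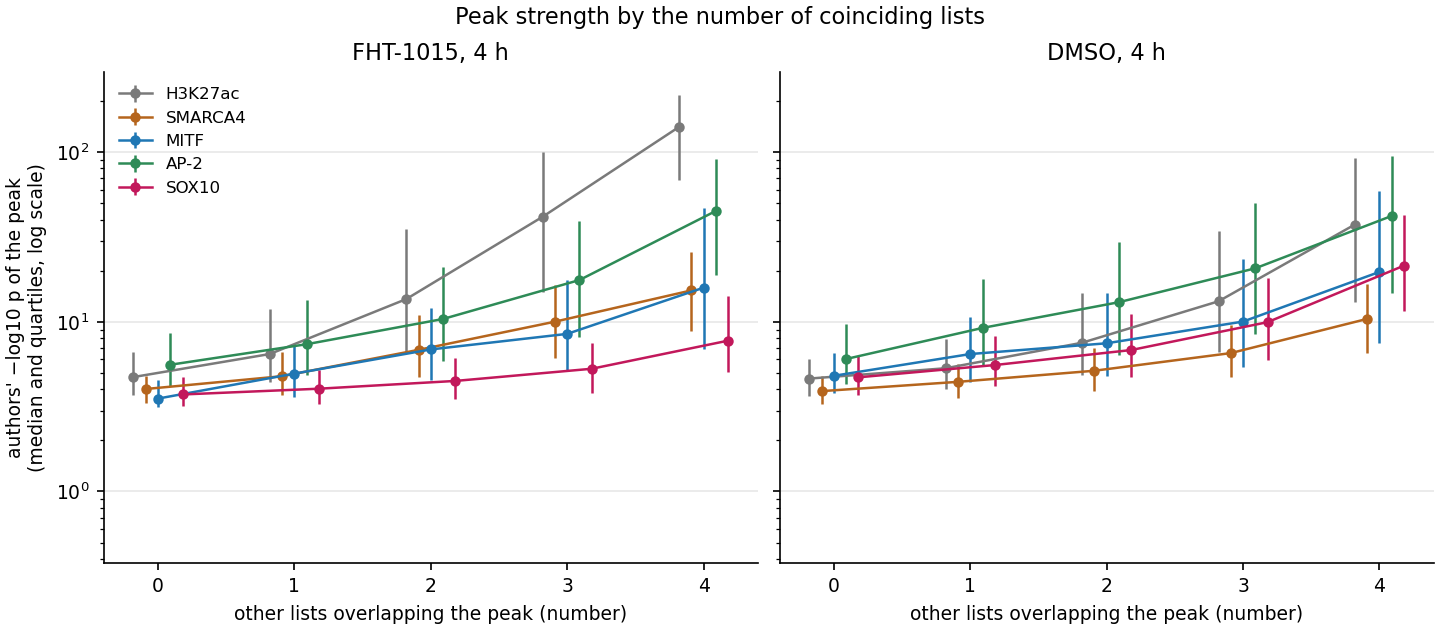
Median −log10 p of the peaks of each list (points; bars show the quartiles; log scale) against the number of other lists that overlap them, after FHT-1015 (left) and DMSO (right). After FHT-1015 the H3K27ac line runs from 4.72 to 141 and the SOX10 line from 3.73 to 7.74.

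The strongest 1% of each list were the peaks that met most often. All 4 other lists overlapped 99.7% of the 333 strongest SOX10 peaks, 93.6% of H3K27ac, 90.9% of MITF, 69.6% of AP-2 and 66.1% of SMARCA4 peaks. Of the strongest 1% of SOX10 peaks 3.003% lay at gene boundaries, against 64.9% for H3K27ac, 54.8% for AP-2, 38.9% for SMARCA4 and 32.5% for MITF. In DMSO the shares at boundaries among the strongest 1% were 3.77% for SOX10, 5.78% for SMARCA4, 12.3% for MITF, 26.2% for AP-2 and 44.3% for H3K27ac.

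The strongest single peaks were shared in some lists and not in others. The highest MITF peak and the highest SOX10 peak lay on the same site inside PLXNA2, which encodes a semaphorin receptor, at chr1:208086064-208087241 for MITF. The −log10 p there was 327 for H3K27ac, 186 for SMARCA4, 489 for MITF, 249 for AP-2 and 249 for SOX10, and the MITF and SOX10 summits were 73 bp apart. The second MITF and the third SOX10 peak lay 29.8 and 29.4 kb from PTTG1, on the widest H3K27ac peak of the list. The second SOX10 peak lay 16.9 kb from SNAI2, with values of 308, 178, 296, 304 and 238. In contrast, the 3 highest SMARCA4 peaks, inside DNAJC6 (−log10 p 303), GPR158 (269) and NTSR2 (189), had no H3K27ac peak over them. They were not typical of strong SMARCA4 peaks. Of the strongest 898 only 79 had none and 91.2% overlapped H3K27ac, against 47.9% of all SMARCA4 peaks. The highest AP-2 peak, inside MATCAP2, reached 429.8 for AP-2 but 15.2 for H3K27ac, 14.95 for SMARCA4, 6.42 for MITF and 6.35 for SOX10. The highest H3K27ac peaks lay over CCDC106, SLC8A1 and TYRP1 and met all 4 other lists.

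Shared sites, the stretches of bases common to all 5 lists, numbered 9517, with a median width of 244 bp and 2.80 Mb in all. Of these, 45.4% (44.4 to 46.4) lay at a gene boundary, 29.5% inside a gene away from its boundaries and 25.1% outside genes. Each antibody's peak at a site was ranked by −log10 p within its list, and the weakest antibody of the site was the one with the lowest rank. It was SOX10 at 37.3% of sites, H3K27ac at 18.998%, SMARCA4 at 16.5%, MITF at 14.6% and AP-2 at 12.6%. In DMSO SOX10 was the weakest at 12.4% of 26245 shared sites. Ranks were shares of each list, so a given rank lies equally far along lists of any length. The SOX10 list was the shortest after FHT-1015, and the part of list length in these shares was not tested.

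Sites at boundaries and sites elsewhere were built differently. At the 4321 boundary sites the median −log10 p was 183 for H3K27ac, 12.9 for SMARCA4, 12.3 for MITF, 55.3 for AP-2 and 6.76 for SOX10. At the 5196 other sites it was 131, 19.1, 22.96, 44.5 and 10.4. H3K27ac and AP-2 were thus the higher at boundaries, and SMARCA4, MITF and SOX10 the higher elsewhere. The summits of MITF, AP-2 and SOX10 spanned a median of 241 bp at boundary sites and 111 bp elsewhere. The SMARCA4 summit lay a median of 184 bp from the middle of the 3 factors at boundaries and 52.5 bp from it elsewhere, and the H3K27ac summit 192 and 269 bp. Away from boundaries the factors and SMARCA4 therefore sat closer together and H3K27ac farther off.

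Strengths of different antibodies went together only in part. Strength was taken here as fold enrichment. Across the 9517 shared sites, Spearman's rho of fold was 0.334 between SMARCA4 and SOX10 and 0.304 between MITF and SOX10. It was 0.243 between SMARCA4 and AP-2, and 0.033 between H3K27ac and SMARCA4. Away from boundaries the first 3 were 0.440, 0.394 and 0.383, and at boundaries 0.132, 0.137 and 0.148. These are descriptions over sites that share libraries, an input and local base composition, and sites are not replicates.

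Most shared sites stood alone. Joined where less than 12.5 kb apart, they formed 7035 clusters, of which 75.2% held 1 site and 63 held at least 5, with 384 sites among them. The cluster with the most sites, 11 over 51.7 kb, lay over TFAP2A itself. A cluster of 10 lay at IRF2BP2 and another outside genes, with ZEB2 the nearest at 487641 bp, and the 4 clusters of 9 included those over TYRP1 and ZFP36L1. A cluster of 8 lay at ID2, which encodes an inhibitor of basic helix-loop-helix factors.

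Wide acetylated domains held most factors. H3K27ac peaks of the widest 10% (median 3238 bp) contained summits of all 4 other antibodies in 77.4% of cases, and those of the narrowest 10% (median 200 bp) in 0.0208%. The wider peaks also offer more bases for a summit. The widest lay 22292 bp from PTTG1 (39608 bp), over GNAI1 (36155 bp) and over RAB38 (34552 bp), a small GTPase gene of melanosome transport, and another (32860 bp) lay 498513 bp from ZEB2, the nearest gene. The H3K27ac peak over TYRP1 spanned 31757 bp and held 20 SMARCA4, 8 MITF, 10 AP-2 and 21 SOX10 summits.

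Genes with a shared site at a boundary numbered 4142 of 20033 (20.7%), and in DMSO 5548 (27.7%). Both conditions shared 3228 of them, which were 77.9% of the FHT-1015 genes and 58.2% of the DMSO genes, and 914 had one only after FHT-1015. At annotated starts 3497 of 15842 genes had a shared site (22.1%), and inside the gene or within 10 kb 6582 had one (32.9%), against 10088 in DMSO (50.4%). Keeping only strong peaks left 493 genes (2.46%), and without the SOX10 list there were 5939 (29.6%). An H3K27ac peak lay at a boundary of 57.3% of genes, a SMARCA4 peak at 63.3%, a MITF peak at 45.3%, an AP-2 peak at 69.3% and a SOX10 peak at 40.7%, and 23.4% had no peak of any list there. In DMSO an H3K27ac peak lay at 57.7% of genes, a SMARCA4 peak at 58.2%, a MITF peak at 47.3%, an AP-2 peak at 69.3% and a SOX10 peak at 63.5%, so the SOX10 share was the one that differed most between the conditions.

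The 20 genes with the strongest shared sites, scored by their weakest antibody, included genes of the neural crest, of glia and of pigment cells. SNAI2, which encodes a neural crest repressor, came first, with a site at chr8:48921270-48922345 and −log10 p values of 379.5 for H3K27ac, 80.5 for SMARCA4, 180.1 for MITF, 214 for AP-2 and 154 for SOX10. The site of ERP27, the gene of a redox-inactive endoplasmic reticulum protein, at chr12:14913085-14913851, had 327, 59.3, 107, 352 and 134. The site of EMCN, which encodes endomucin, had 367, 44.7, 227, 177 and 97.5. That of GPNMB, at chr7:23246465-23247068, had 415, 68.3, 304, 204 and 60.6. All 5 lists were therefore in their strongest 2% at these 4 sites.

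SPRY2, which encodes a feedback inhibitor of receptor tyrosine kinase signalling, had 364 for H3K27ac, 31.1 for SMARCA4, 142 for MITF, 213 for AP-2 and 78.8 for SOX10. CDH19, a cadherin gene of Schwann cell precursors, had 314, 35.1, 84.7, 69.3 and 144. NAGLU, which encodes a lysosomal glucosaminidase, had 281, 77.02, 359, 251 and 23.5. NFE2L2, the gene of the oxidative stress factor NRF2, had 218, 35.7, 30.8, 123 and 29.0. Others were GOLGA4, LOC107986768, SLC24A4, TMX4, RAD51B, SPATA9, RNF144B, ANKRD50, RNF138 and the neighbours NAB2 and NEMP1, which shared a site. All 20 also had a shared site at a boundary in DMSO.

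At these 19 sites the summits of MITF, AP-2 and SOX10 spanned a median of 51 bp (20 to 791), and 14 spanned less than 100 bp. The H3K27ac summit often lay farther away, 1269 bp from the MITF summit at SNAI2, 1343 bp at EMCN and 1257 bp at GPNMB. The exceptions in factor spacing included SPATA9 (483 bp) and RNF138 (791 bp).

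The 5 strongest shared sites away from any boundary each scored better than any of the 20 genes. They lay 7145 bp from LPGAT1, 84801 bp from MYO10, 17088 bp from TACC1, inside MOK and inside HMCN1. The site near LPGAT1, at chr1:211735543-211736311, had −log10 p values of 384 for H3K27ac, 134 for SMARCA4, 271 for MITF, 309 for AP-2 and 155 for SOX10. The site near MYO10, which encodes a motor protein of filopodia, at chr5:17021090-17022091, had 403, 112, 376, 405 and 136. Its MITF, AP-2 and SOX10 summits lay within 8 bp of one another, with the SMARCA4 summit 3 bp and the H3K27ac summit 783 bp from that of MITF.

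Of the 9 genes of the pigment lineage and the remodeller, 5 had a shared site at a boundary after FHT-1015, with 20.7% over all genes. They were MITF, SOX10, TFAP2A, TYR and TYRP1. In DMSO it was also 5, with 27.7% over all genes, but TYR, TYRP1, SOX10, PMEL and MLANA. None of the 9 had a shared site of strong peaks at a boundary, with 2.46% over all genes. The median of the best boundary SOX10 peak over the 6 genes with one was 8.00, against 33.3 over 9 genes in DMSO. TYR, which encodes tyrosinase, had its site at chr11:89177761-89178002, across its start, with fold enrichments of 19.6 for H3K27ac, 4.73 for SMARCA4, 18.8 for MITF, 7.48 for AP-2 and 3.94 for SOX10. In the gene and 10 kb either side it had 2 SOX10 peaks after FHT-1015 and 10 in DMSO.

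MITF itself had 11 shared sites in the gene and 10 kb around it, 25 SOX10 peaks there after FHT-1015 and 55 in DMSO. Its strongest, at chr3:69820794-69821567 inside the gene, had −log10 p values of 309 for H3K27ac, 34.7 for SMARCA4, 153 for MITF, 63.5 for AP-2 and 113 for SOX10. TFAP2A had 6 sites, the strongest with 358, 17.7, 60.8, 56.4 and 81.2, and 16 SOX10 peaks against 24 in DMSO. The SOX10 gene had 2 shared sites, the strongest with 52.0, 43.0, 4.01, 102 and 7.86, and 1 SOX10 peak against 12. TYRP1 had 6 shared sites and 21 SOX10 peaks against 20.

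Other pigment genes had fewer shared sites. PMEL, which encodes the protein of melanosome fibrils, and MLANA had 1 shared site each, away from their boundaries, with 4 and 1 SOX10 peaks after FHT-1015 and 16 and 15 in DMSO. DCT, which encodes dopachrome tautomerase, had no shared site, no SOX10 peak and no peak of any list at a boundary, although 3 H3K27ac and 4 MITF peaks lay within 10 kb of it. In DMSO it had 3 shared sites and 7 SOX10 peaks. SMARCA4 had all 5 lists at a boundary but no base common to them.

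The other gene lists were read against the 20.7% of all protein-coding genes after FHT-1015, and their DMSO counts, in brackets, against 27.7%. Melanosome biogenesis and transport had a shared site at 9 of 20 genes (17 in DMSO), lysosome and autophagy at 12 of 24 (17), neural crest factors at 9 of 20 (9), the Gαq and MAP kinase pathway at 14 of 26 (17), cell cycle and survival at 11 of 25 (17), and AP-1, YAP and TEAD genes at 9 of 19 (14). BAF subunits had 9 of 28 (9), cytosolic ribosomal proteins 32 of 76 (30), uveal melanoma driver and prognostic genes 4 of 17 (6) and control genes 4 of 10 (8). The markers of other cell types had 2 of 30 (4), namely APOA1 and CD68. After FHT-1015 every list but the last lay above the share over all genes, control and ribosomal genes included. The uveal melanoma list (23.5%, 9.56 to 47.3) lay near that share. The intervals of BAF subunits (17.9 to 50.7), control genes (16.8 to 68.7) and the markers of other cell types (1.85 to 21.3) also contained it. With strong peaks alone that order did not hold for every list: against 2.46% of all genes, the pigment list had 0 of 9, ribosomal proteins had 1 of 76 (1.32%) and the markers of other cell types 0 of 30. The other lists had 1 to 4 genes each under that rule. The highest share was that of the control genes, with 2 of 10 (20%), GAPDH and PPIA, so strong shared sites were not particular to lineage or pathway lists.

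**Figure D5:**
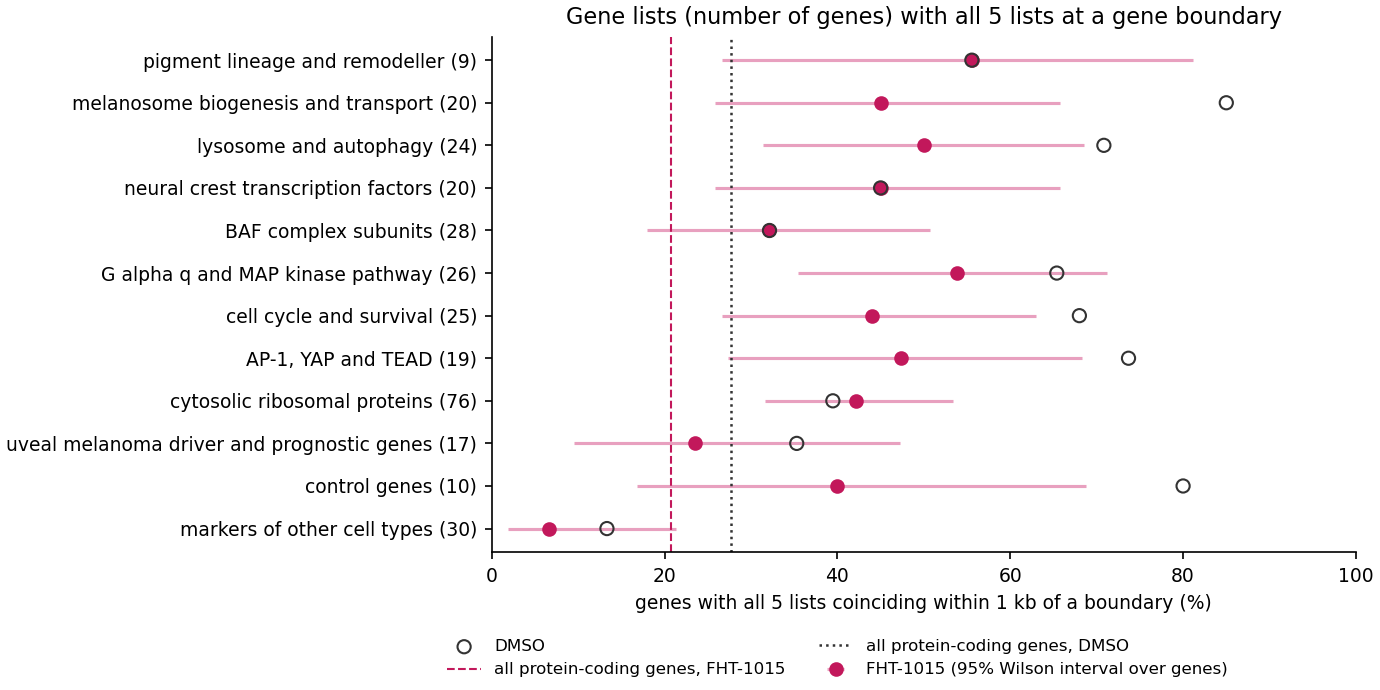
Share of the genes of each list (%; number of genes in brackets) with bases common to all 5 lists within 1 kb of a boundary after FHT-1015 (red, with 95% Wilson intervals over genes) and in DMSO (open circles). Lines give the shares over all protein-coding genes, 20.7% and 27.7%, and the markers of other cell types lie lowest, at 6.67%.

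Within the melanosome list the 9 genes were AP3B1, ATP7A, GPNMB, HPS1, HPS4, MC1R, RAB32, RAB38 and SLC24A5. GPNMB and HPS4 had shared sites of strong peaks, with 2.46% over all genes. Without the SOX10 list 15 of the 20 had a shared site, with 29.6% over all genes. That was not particular to this list, as 18 of 24 lysosome and autophagy genes and 9 of 10 control genes had one under the same rule. RAB38 had 9 shared sites in and around the gene, the strongest with −log10 p values of 304 for H3K27ac, 49.8 for SMARCA4, 272 for MITF, 77.5 for AP-2 and 83.4 for SOX10. TRPM1, a melanocyte cation channel gene, and GPR143, a melanosomal receptor gene, had none at the ends of the gene, but sites whose middle lay 602 and 147 bp from a start that RefSeq places inside it. The TRPM1 site had −log10 p values of 269.8, 37.5, 149, 114 and 24.5.

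Among lysosomal genes CTSA and ATP6V0D1, the latter a subunit of the proton pump, had shared sites of strong peaks. Their MITF values were 161 and 151 and their SOX10 values 17.7 and 14.9. HEXA, the gene of a hexosaminidase subunit, had 218 for MITF and 8.74 for SOX10. MITF peaks lay at a boundary of 20 of the 24 genes, with 45.3% over all genes, and their median −log10 p was 87.7, against 9.55 over all genes with one. SOX10 peaks lay at 15, with 40.7% over all genes, and their median was 8.23, against 6.28.

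The 9 neural crest genes were FOXD3, ID2, ID3, NR2F1, PAX3, SNAI2, SOX5, TWIST1 and ZIC1, and the same 9 remained as the full set when the SOX10 list was left out, with 29.6% over all genes. SOX6 and ETS1 had shared sites inside the gene or within 10 kb, but none at its ends. The SOX6 site had 318 for H3K27ac, 83.9 for SMARCA4, 327 for MITF, 225 for AP-2 and 226 for SOX10. PAX3, which encodes an activator of MITF, had 8 shared sites in and around the gene, the strongest with 186, 49.7, 118, 175 and 70.8.

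The genes of BAF subunits were ACTB, ARID1A, ARID2, BCL7C, BICRAL, BRD9, PHF10, SMARCC1 and SS18, and BCL7C had one of strong peaks. All 28 had a SMARCA4 peak and an AP-2 peak at a boundary, with 63.3% and 69.3% over all genes. A MITF peak lay at 13 (46.4%), which was near the 45.3% of all genes. ARID1B had its strongest site inside the gene, with 290.3 for H3K27ac, 63.8 for SMARCA4, 312 for MITF, 280.1 for AP-2 and 166 for SOX10.

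In the Gαq and MAP kinase list, which holds the pathway mutated in uveal melanoma, the 14 genes included MAP2K1 and MAP2K2, which encode kinases of the cascade, and SPRY2, SPRY4, SPRED1, SPRED2 and DUSP4, their feedback inhibitors. MAP2K1, SPRED1, SPRY2 and SPRY4 had shared sites of strong peaks. RASGRP3, which encodes an exchange factor downstream of Gαq, had its strongest site away from its boundaries, with 346 for H3K27ac, 45.9 for SMARCA4, 319 for MITF, 182 for AP-2 and 108 for SOX10.

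The cell cycle and survival genes included BAX, CCND1, CCND3, CDK4, CDKN1B, CDKN2A, MCL1, MDM2, MYC and RB1, and of the 11 CCND3 alone had a shared site of strong peaks. BCL2A1, a survival gene of melanocytes, had a shared site away from its boundaries, with 315 for H3K27ac, 35.6 for SMARCA4, 194 for MITF, 133 for AP-2 and 66.8 for SOX10. FOSL2 and YAP1 were the AP-1 and YAP genes with one, and their SOX10 values were 15.98 and 13.04. In the prognostic list ID2 and MTUS1 had one, and EIF1B and SRSF2 had a shared site with at least 1 weaker peak.

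Ribosomal protein genes had peaks of SOX10 and H3K27ac without exception. All 76 had a SOX10 peak and an H3K27ac peak at a boundary, with 40.7% and 57.3% over all genes. The SOX10 peaks had a median −log10 p of 9.29 (3.87 to 32.0) and the H3K27ac peaks one of 217 (104 to 386), with 29.0 for SOX10 in DMSO. A shared site was present at 32, and RPS12 had one of strong peaks. MITF peaks lay at 64 and SMARCA4 peaks at 72, with 45.3% and 63.3% over all genes. The boundaries include both ends of a gene, and a shared site at an annotated start was present at 20 of the 76, with 22.1% over all genes with one.

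The label of the line was checked against markers of the pigment lineage and of other cell types. An H3K27ac peak lay at a boundary of MITF, SOX10, TYR, TYRP1, PMEL and MLANA, and not of DCT. Of 30 markers of other cell types 3 had an H3K27ac peak and 2 a SOX10 peak at a boundary, with 57.3% and 40.7% over all genes. No peak of any list lay at a boundary of 14, with 23.4% over all genes. AP-2 peaks lay at 14 of the 30 markers, with 69.3% over all genes.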

How the data were processed

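ChIP-seq peak lists of 10 libraries of 92-1 cells were used, 1 per antibody and condition, and the input library was not analysed here as a list. Per the submitters' processing notes, BWA, SAMtools, Picard and MACS2 and the build hg38 were used, and their versions and settings were not given in the sources used here. The deposited narrow lists give per peak a fold enrichment (a linear ratio over background), −log10 p and −log10 q values, a score and a summit, all as the authors' caller wrote them. The deposited score was 10 times −log10 p without its decimals and was used only in that check. Peak calling was per library, so depth and background enter each list separately. Peak values gave whole reads at 98.8% or more of solved peaks in 4 of the FHT-1015 libraries, and at 92.6% in that of SOX10 only after a scale factor of 0.890 was allowed for, and 0.920% of its peaks lay on unplaced sequences.

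Overlaps of at least 1 bp, merged regions, summit distances (start plus summit offset), boundary shares and ranks were computed in Python 3.11.15 with numpy 2.4.6, pandas 2.3.3 and SciPy 1.17.1, and the code was tested on simulated data. Genes, starts and promoters were RefSeq's on GRCh38.p14, and shares have 95% Wilson intervals. Named genes were the 20 with the best shared site at a boundary, each scored by the worst of its 5 within-list ranks, the 9 pigment lineage genes, and up to 4 genes of each other list. The members, lists and rules were chosen with earlier results of these data known. Alternatives were a threshold on p or q, lists of equal number, stricter overlap, other boundaries and the broad lists. Some genes that met the naming rule are not reported here.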

Additional observations from a re-analysis of the deposited data

How the results depend on the processing

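With 1 library per antibody and condition no replicate could be left out, and no result has a test. No paired analysis was possible because each group holds 1 library. Of 51 values recomputed for the main comparisons 42 moved and 9 did not. Some orders turned: with lists of equal number SOX10 no longer met all 4 others most often (18.2% against 19.3% for H3K27ac) and AP-2 met SOX10 (34.6%) more often than MITF (32.1%), and with −log10 p of at least 10 the boundary share of SOX10 (30.3%) lay below that of SMARCA4 (44.5%). The share of SOX10 peaks with H3K27ac was 89.9% with −log10 p of at least 10, 70.4% with q of at most 0.05, 53.7% with lists of equal number, 53.5% with 50% of the peak covered, 22.8% with summits within 200 bp and 56.5% with the broad lists. With MITF it was, in the first 5 of these settings, 63.4, 48.9, 30.9, 31.7 and 29.9%, and with all 4 lists in the 6 settings 45.1, 37.4, 18.2, 20.6, 5.67 and 28.7%. The median distance between H3K27ac and SOX10 summits was 263 bp with equal lists and 225 bp over nearest summits within 1 kb. That between MITF and SOX10 was 41 bp with −log10 p of at least 10, 67 bp with equal lists and 112 bp over nearest summits. Regions with all 5 lists numbered 3285 for windows of 100 bp around summits, 2280 with −log10 p of at least 10 and 13857 without the SOX10 list, a choice made after seeing the data. Their share at boundaries was 54.7% within 2.5 kb, 46.7% at annotated starts and 29.1% with −log10 p of at least 10, and that of regions with 1 list 10.98, 2.40 and 14.7%. Genes numbered 6582 with 10 kb around the gene, 493 with −log10 p of at least 10 and 2682 with equal lists. The median −log10 p of peaks with all 4 others was, with summits within 200 bp, 108 for H3K27ac, 17.6 for MITF and 38.95 for AP-2, and with equal lists 154 for H3K27ac, 18.8 for SMARCA4, 23.4 for MITF, 60.9 for AP-2 and 8.75 for SOX10. The SOX10 list was the shortest and the MITF library the shallowest, which limits what an absent overlap with either shows, and the cause of these shifts was not tested.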
